A study of Drosophila melanogaster with 6 samples.

Results

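The vacuolar H+ ATPase (V-ATPase) genes of *Drosophila melanogaster* were followed in wing imaginal discs, the epithelial sacs of the larva that give rise to the wings. Members were all genes whose FlyBase symbol starts with Vha. Of 33 such symbols in the reference annotation, 31 were found among the 17478 genes of the count table, 29 by their identifier and 2 (*Vha26* and *Vha13*) by an older identifier that the study's supplementary tables pair with these names. *Vha44* (subunit C) and *VhaAC39-1* (subunit d) were not matched and are not analysed here.

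RNA was sequenced from 3 samples of *UAS-CycGΔP, da-Gal4/+* discs (*CycGΔP* discs) and from 3 samples of *da-Gal4/+* discs (control discs), to ask which transcripts differ when this form of Cyclin G is produced. *CycGΔP* encodes Cyclin G without its PEST domain, and the *da-Gal4* driver, which all 6 samples carry, acts throughout the larva and not in discs alone. According to the methods, a sample held 150 discs of female larvae in the third instar, and replicates came from independent crosses. The methods write the driver and transgene on homologous chromosomes (*da-Gal4/UAS-CycGΔP*), whereas the sample labels write them on the same one.

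The V-ATPase is a rotary proton pump that acidifies endosomes, lysosomes, the Golgi and secretory vesicles. Its cytosolic V1 sector hydrolyses ATP on alternating subunits A and B, its membrane V0 sector carries protons through a ring of c-type subunits past subunit a, and peripheral stalks of subunits E and G hold the sectors together. In flies many subunits are encoded by several genes, of which some are restricted to certain organs such as the testis or gut, and the pump is especially abundant in Malpighian tubules, where it energises fluid secretion. In developing wing cells V-ATPase activity is known to affect endocytic traffic and Notch and Wnt signalling.

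The libraries held from 21853360 to 40059450 counts, and 9408 genes passed the filter on low counts and were tested with edgeR's quasi-likelihood test, with Benjamini-Hochberg adjustment over all of them. *CycG* itself, the targeted gene, had 1022, 1012 and 900.2 CPM (counts scaled to library size) in *CycGΔP* discs and 722.6, 788.3 and 686.1 CPM in control discs, 1.34-fold more on average (log2 fold change 0.42 ± 0.0878 SE, edgeR adjusted p = 0.0909), and the counts do not separate transgene from endogenous gene. Of 9 wing disc genes (*nub*, *vg* and others), 8 were found, and their summed level was between 1867 and 2166 CPM in every library. Other tissues were unevenly present. Of 7 genes listed for Malpighian tubules, 6 summed to 30.9 and 28.3 CPM in control replicates 1 and 2, against 0.418 CPM in control replicate 3 and 1.01 to 1.33 CPM in *CycGΔP* discs. *Uro* (urate oxidase), the defining tubule marker, had 560 and 802 counts in control replicates 1 and 2, and 6, 0 and 2 counts in *CycGΔP* discs and 0 in control replicate 3. The seventh, *Best2*, was at 59.9 to 68.5 CPM in every library. A list of 12 digestive midgut genes, chosen after values were seen, summed to 413.5 CPM in *CycGΔP* replicate 1 and 185.8 CPM in replicate 3, against 5.61 to 104.3 CPM in the other libraries. Most of that sum was *Jon65Aiii*, and the other 11 genes summed to 168.3 CPM in *CycGΔP* replicate 1 and at most 7.19 CPM elsewhere. Of 10 muscle genes, 6 were lower in *CycGΔP* discs without overlap between groups, against 12.1% of all tested genes. Only 1, the myosin gene *Mhc*, passed the test as lower (edgeR adjusted p = 0.0449), against 0.733% of all tested genes. Of 5 male accessory gland genes, 3 were tested and 2 passed as higher, against 0.691% of all tested genes. The larvae are described as female, and the source of this RNA was not tested. *Acp26Aa* had 99, 101 and 127 counts in *CycGΔP* discs and *Acp26Ab* 55, 65 and 94, and both had 0 in every control library (edgeR adjusted p = 0.00777 and 0.0164). *Acp36DE* overlapped between groups, at 29, 258 and 82 counts against 90, 14 and 72 in control discs. *Acp62F* had at most 4 counts in any library, and *SP* had 0 in all 6. The summed level of 6 fat body genes was 22240 CPM in control replicate 1 and 717.5 to 7556 CPM elsewhere.

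The members separated into genes expressed in discs and genes near 0. Of the 31 members, 17 averaged 1 CPM or more over the 6 libraries, and 14 lay below it. *Vha100-5* was among the 17 only through *CycGΔP* replicate 1 and averaged 0.453 CPM over the other 5 libraries, so 16 are called expressed in discs. To set levels of different genes side by side, CPM were divided by the length of all annotated exons in kb. The order of genes depends on this division. Before it, *Vha26* averaged 229.6 CPM and *Vha13* 90.0 CPM in control discs, the reverse of their order per kb. In control discs *Vha16-1*, whose product forms most of the proton-carrying c ring, was the most abundant member, at 251.0 ± 11.5 CPM per kb (SD, n = 3). *Vha68-2*, the catalytic subunit A, followed at 118.6 CPM per kb and *Vha13*, the stalk subunit G, at 95.4 CPM per kb. *Vha55* (subunit B, 86.4 CPM per kb) and *VhaPPA1-1* (subunit c'' of the ring, 84.5 CPM per kb) did not differ beyond their range over control libraries. Nor did *Vha26* (subunit E, the partner of G in the stalk, 78.5 CPM per kb) and *Vha14-1* (subunit F, in the central rotor, 74.9 CPM per kb), or *Vha14-1* and *Vha36-1* (subunit D, the rotor shaft, 74.2 CPM per kb).

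Below these came *VhaAC45* (the accessory membrane protein Ac45, 68.0 CPM per kb) and *VhaM9.7-b* (the small membrane subunit e, 53.2 CPM per kb). *Vha100-2* (subunit a, 43.0 CPM per kb) and *VhaSFD* (subunit H, which holds back ATP hydrolysis in free V1, 40.6 CPM per kb) overlapped in range. *Vha100-1*, a further subunit a gene known for its role in synaptic vesicles, stood at 28.8 CPM per kb, *VhaM9.7-c* at 16.0 CPM per kb, *VhaAC45RP* at 3.31 CPM per kb and *Vha68-1* at 0.932 CPM per kb. The highest copies of the 12 subunit types that could be compared thus spanned a 6.18-fold range per length in control discs, from *Vha16-1* to *VhaSFD*.

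**Figure D1:**
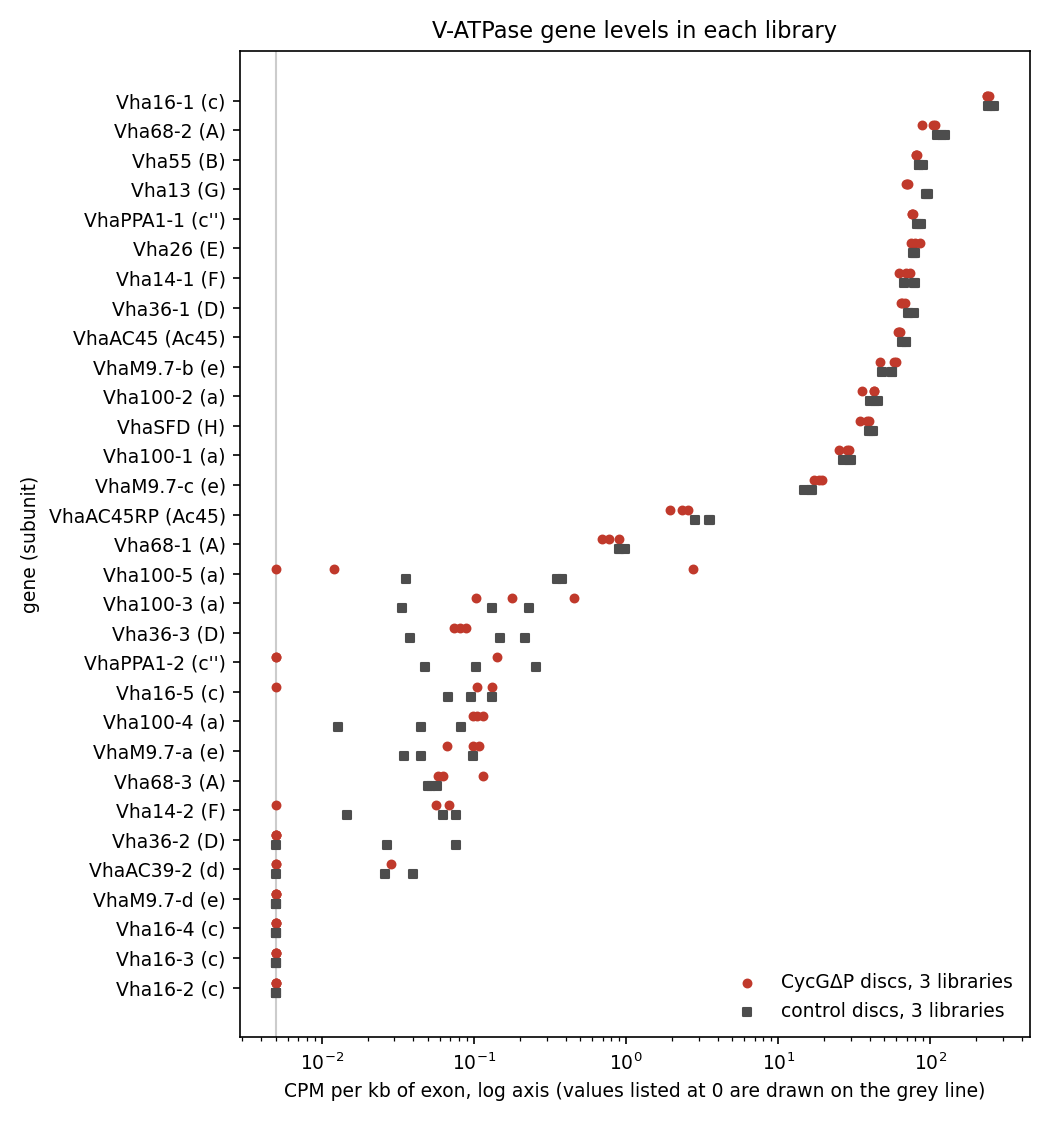
Level of each of the 31 V-ATPase genes in CPM per kb of exon on a log axis, with the subunit in brackets, each point being 1 of 3 *CycGΔP* (circles) or 3 control (squares) libraries, and values listed at 0 drawn on the grey line. Below *Vha68-1*, every value is under 1 CPM per kb except that of *Vha100-5* in *CycGΔP* replicate 1.

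The 14 genes near 0 were *Vha68-3*, *Vha36-2*, *Vha36-3*, *Vha14-2*, *Vha100-3*, *Vha100-4*, *Vha16-2*, *Vha16-3*, *Vha16-4*, *Vha16-5*, *VhaPPA1-2*, *VhaAC39-2*, *VhaM9.7-a* and *VhaM9.7-d*. *Vha16-2*, *Vha16-3*, *Vha16-4* and *VhaM9.7-d* had no count in any of the 6 libraries, which allows up to 0.0736 to 0.143 CPM per library (3 counts, counting error only). Of the other 10, only *Vha100-3* passed the filter, with 8, 28 and 15 counts in *CycGΔP* discs and 21, 4 and 11 in control discs, and no other exceeded 9 counts in any library. At these counts *Vha100-3* was not called (edgeR adjusted p = 0.629), and the others were not tested. *Vha68-3* and *Vha100-4* were higher without overlap between groups, as were 9.98% of all tested genes. *Vha68-3* was at 0.1525, 0.1426 and 0.2792 CPM in *CycGΔP* discs and 0.1279, 0.1227 and 0.1393 CPM in control discs. *Vha100-4* was at 0.2668, 0.2852 and 0.3141 CPM against 0.2238, 0.1227 and 0.03483 CPM. The 6 testis genes of the marker list summed to at most 1.43 CPM in any library.

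Several near-silent copies lie next to an expressed one. On dm6 chromosome 2L, *Vha68-2* (12974322 to 12978607, plus strand) is followed after 178 bp by *Vha68-3*, which had 3 to 8 counts per library, and after a further 19476 bp by *Vha68-1*. On 3R, 517 bp separate *Vha100-2* from *Vha100-4*, which had 1 to 9 counts, and 2052 bp separate *VhaPPA1-1* from *VhaPPA1-2*, which had 0 to 7. On 3L, *Vha16-2* and *Vha16-3*, 985 bp apart, were both listed at 0. Exons of 5 members overlap those of another gene, over 503 of 595 bp in *Vha16-2* and 527 bp in *Vha100-5*, in both cases with an antisense RNA gene, and over at most 47 bp in *Vha100-1*, *Vha100-4* and *VhaPPA1-2*. Whether strand was used in counting is not given in the sources used here, so the counts of these genes are uncertain.

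Where a subunit had several genes, 1 copy gave nearly all of its RNA, except for subunits a and e. Per length, *Vha68-2* gave 99.1% ± 0.0213 of the subunit A level in *CycGΔP* discs and 99.2% ± 0.0907 in control discs (SD, n = 3 each). Shares of the leading copy were above 99.7% in both groups for *Vha36-1*, *Vha14-1*, *Vha16-1* and *VhaPPA1-1*, and *VhaAC45* gave 96.5% and 95.4%. Subunit a was divided between a pair of genes. *Vha100-2* gave 57.6, 58.0 and 59.2% in *CycGΔP* discs and 59.6, 59.2 and 59.9% in control discs, and *Vha100-1* gave 38.4 to 41.1% in all 6 libraries. For *Vha100-2* the groups nearly touch without overlapping, and for *Vha100-1* they overlapped. With *Vha100-5*, which was high in *CycGΔP* replicate 1, left out of the sum, the *Vha100-2* share was 59.9, 58.0 and 59.2% against 59.9, 59.5 and 59.9%, and these groups overlapped. For subunit e, *VhaM9.7-c* gave 26.8, 24.6 and 24.2% in *CycGΔP* discs and 22.8, 23.5 and 23.2% in control discs, with *VhaM9.7-b* giving nearly all of the rest. The *VhaM9.7-c* share was higher in each *CycGΔP* library than in each control library. So was the share of *VhaAC45*, at 96.4, 97.0 and 96.0% against 95.1, 95.2 and 95.8%. The share of *Vha36-1* was also higher, at 99.86, 99.89 and 99.88% against 99.79, 99.84 and 99.69%. So were the shares of *Vha68-3* and *Vha100-4*, copies near 0. None of these shifts in share was tested.

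**Figure D2:**
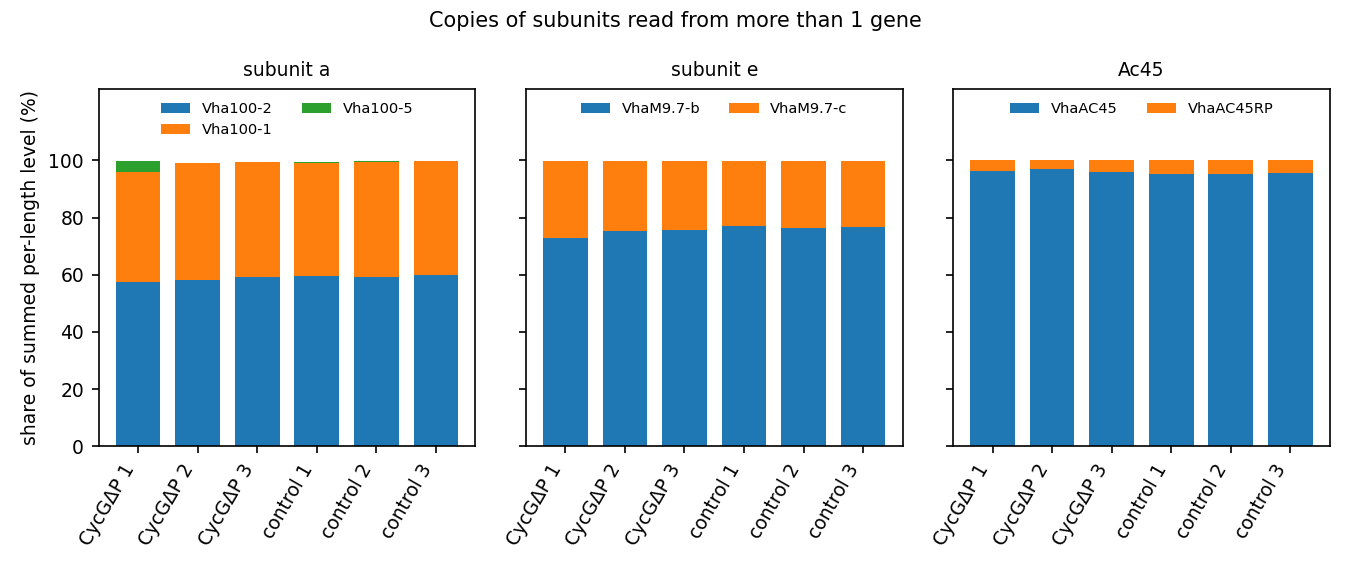
Share of the summed per-length level (%) taken by each gene of subunit a, subunit e and Ac45 in each of the 6 libraries, leaving out copies under 1% in every library. *Vha100-2* and *Vha100-1* divide subunit a at 57.6 to 59.9% and 38.4 to 41.1%, and *VhaM9.7-c* takes 22.8 to 26.8% of subunit e.

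Among single V-ATPase genes, a difference between *CycGΔP* and control discs passed the test for *Vha13* alone. Summed over the 31 members, the level was 2293, 2231 and 2366 CPM in *CycGΔP* discs and 2537, 2498 and 2393 CPM in control discs. The groups did not overlap, with a ratio of means of 0.928, but control replicate 3, the control with few tubule marker counts, was the lowest control and lay close to *CycGΔP* replicate 3. The sum was not tested. The sum was 0.903-fold for V1 genes, whose groups did not overlap, and 0.953-fold for V0 genes, whose groups did (1138, 1118 and 1174 CPM against 1254, 1198 and 1147 CPM). In bulk RNA, fewer cells of a type and less RNA per cell cannot be told apart.

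Of the 18 members tested, edgeR called 1 lower and 0 higher at an adjusted p under 0.05, where 0.733% of all tested genes were called lower and 0.691% higher (1.42% in either direction). At an unadjusted p under 0.05, 5 members were lower and 0 higher, against 8.07% of all tested genes lower and 6.65% higher. The groups did not overlap in 9 members that were lower and 1 that was higher, against 12.1% lower and 9.98% higher over all tested genes. The log2 fold change was below 0 in 13 of 18 members, against 47.7% of all tested genes, with a median of −0.11 against 0.01. DESeq2 and limma voom also called 1 member lower and 0 higher. Over all genes with an adjusted p, DESeq2 called 3.08% lower and 2.38% higher without a prior and 3.34% and 2.5% with it, and limma voom 0.606% and 0.68%. In 6 of the 9 members that were lower without overlap, control replicate 3, the control with few tubule marker counts, was the lowest control, and in the other 3 (*Vha13*, *Vha36-1* and *Vha68-1*) it was the highest. The part of tubule RNA in these differences was not tested.

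**Figure D3:**
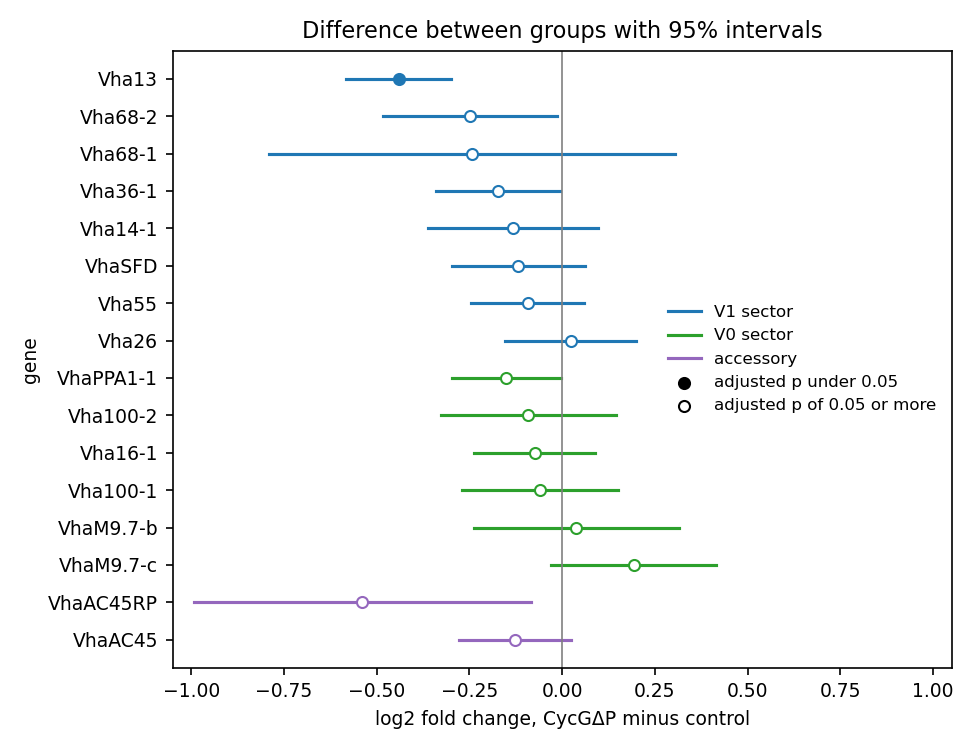
Log2 fold change (*CycGΔP* minus control) with its 95% interval from edgeR for the 16 members expressed in discs, by sector, with filled points at an adjusted p under 0.05. The point for *Vha13* is the filled one at −0.44, and the intervals of most other members include 0.

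*Vha13*, on 3R from 19643018 to 19644386 (minus strand, dm6), encodes subunit G of the peripheral stalk. It was at 65.3, 67.5 and 66.3 CPM in *CycGΔP* discs and at 89.1, 89.4 and 91.5 CPM in control discs. The groups were far apart compared with their spread, and control replicate 3, with 12 tubule marker counts against 968 and 1151 in the other 2 controls, was the highest of all. The part of tubule RNA in the *Vha13* levels was not tested. The means were 66.3 ± 1.08 and 90.0 ± 1.29 CPM (SD, n = 3 each), a 0.737-fold level (log2 fold change −0.44 ± 0.0591 SE, 95% interval −0.58 to −0.30, edgeR adjusted p = 0.0317). The call did not survive the loss of any 1 library, the adjusted p then ranging from 0.0666 to 0.16 at log2 fold changes of −0.47 to −0.43, nor the replicate number as a block (edgeR adjusted p = 0.151). Without control replicates 1 and 2 the log2 fold change was −0.50 (edgeR adjusted p = 0.263), the lone control being assumed to vary as the other group does. Among the 31 members ranked by level per kb, *Vha13* was in place 3 in each control library and in place 6, 6 and 7 in the *CycGΔP* libraries.

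*Vha26*, which encodes subunit E, the partner of subunit G in the stalks, was not called lower. It was at 217.9, 231.7 and 249.9 CPM in *CycGΔP* discs and 233.2, 230.4 and 225.1 CPM in control discs, and the groups overlapped. The log2 fold change was 0.02 (95% interval −0.15 to 0.20, edgeR adjusted p = 0.913). The ratio of *Vha13* to *Vha26* levels was 0.2996, 0.291 and 0.265 in *CycGΔP* discs and 0.382, 0.388 and 0.406 in control discs, without overlap (exact two-sided permutation test, p = 0.1, the smallest that 3 against 3 allows). Of 6 such ratios of *Vha13* to another V1 gene, chosen after values were seen, 5 did not overlap, and *Vha13* to *Vha68-2* did (p = 0.3 by the same exact test). All 6 have the *Vha13* level as numerator. They therefore repeat its difference and are not separate support for it.

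**Figure D4:**
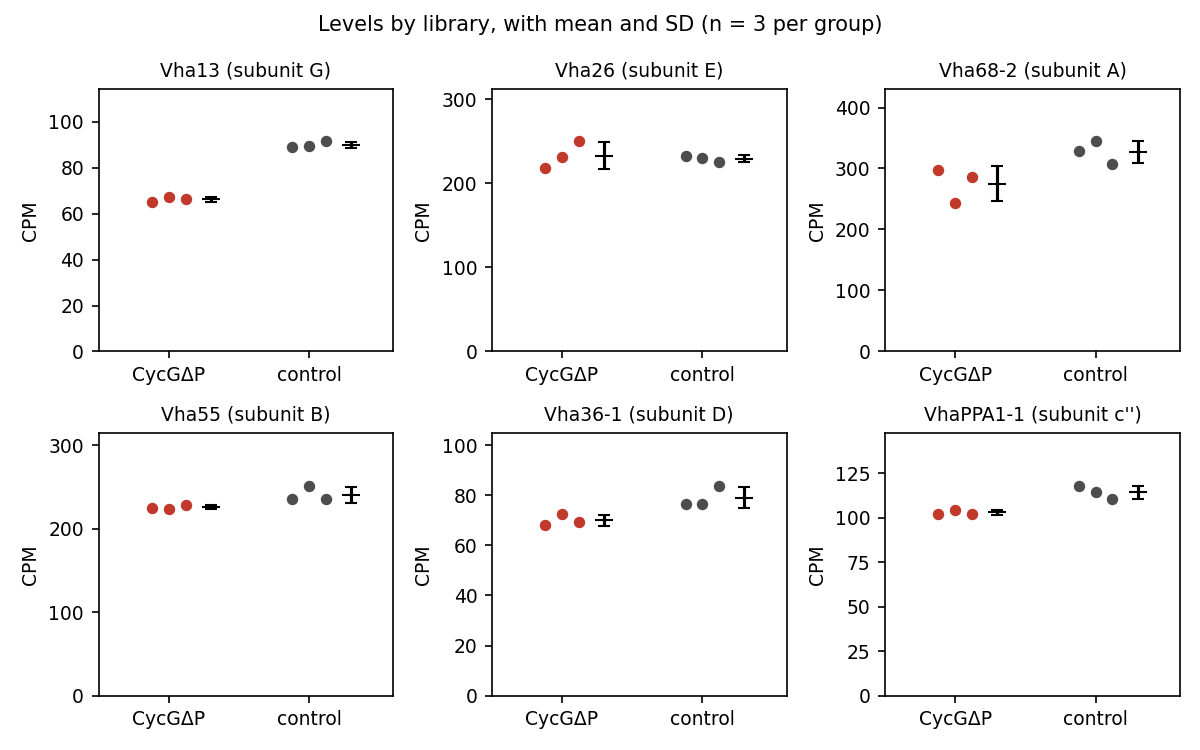
Levels in CPM (axis from 0) of *Vha13*, *Vha26*, *Vha68-2*, *Vha55*, *Vha36-1* and *VhaPPA1-1* in each library, with the mean and SD of 3 libraries beside the points. Among the genes drawn, the groups are separate for all but *Vha26*, and the separation is widest against the spread for *Vha13*, at 66.3 ± 1.08 and 90.0 ± 1.29 CPM. Of the 12 leading copies, 7 were lower without overlap, against 12.1% of all tested genes.

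The catalytic head of V1 showed smaller differences. *Vha68-2*, which encodes the ATP-hydrolysing subunit A, was at 297.3, 242.7 and 286.0 CPM in *CycGΔP* discs and 329.4, 344.3 and 307.9 CPM in control discs. The groups did not overlap, but *CycGΔP* replicate 2 was well below the other 2. The log2 fold change was −0.25 ± 0.0981 SE (95% interval −0.48 to −0.01, unadjusted p = 0.0406, edgeR adjusted p = 0.306). *Vha55*, which encodes subunit B, the other part of the head, was at 225.4, 223.5 and 228.5 CPM against 235.6, 251.5 and 235.1 CPM. These groups did not overlap either, and the difference was smaller (log2 fold change −0.09, edgeR adjusted p = 0.531).

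In the central rotor, *Vha36-1* (subunit D) was at 68.3, 72.4 and 69.3 CPM in *CycGΔP* discs and 76.4, 76.7 and 83.8 CPM in control discs. Every *CycGΔP* library was below every control library, with a log2 fold change of −0.17 ± 0.0695 SE (edgeR adjusted p = 0.321). *Vha14-1* (subunit F) overlapped, at 41.0, 45.4 and 48.6 CPM against 51.6, 44.5 and 52.0 CPM (log2 fold change −0.13, edgeR adjusted p = 0.545). *VhaSFD* (subunit H) was at 108.6, 97.8 and 111.3 CPM against 118.2, 114.8 and 111.9 CPM, groups that nearly touch (log2 fold change −0.12, edgeR adjusted p = 0.503). *Vha68-1*, the minor copy of subunit A, was at 2.40, 1.85 and 2.06 CPM against 2.43, 2.41 and 2.65 CPM, also without overlap. Over the 8 V1 members expressed in discs, 7 were below 0, with a median log2 fold change of −0.15.

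In the membrane sector, *VhaPPA1-1* (subunit c'') was at 102.3, 104.4 and 102.2 CPM in *CycGΔP* discs and 117.9, 114.1 and 110.7 CPM in control discs. The groups did not overlap (log2 fold change −0.15 ± 0.0614 SE, edgeR adjusted p = 0.329). *Vha16-1*, the main ring subunit c, was at 723.8, 725.9 and 751.4 CPM against 806.5, 775.0 and 735.8 CPM. Control replicate 3 fell within the *CycGΔP* range (log2 fold change −0.07, edgeR adjusted p = 0.636). *Vha100-2* (subunit a) was at 138.3, 114.2 and 137.7 CPM against 146.7, 139.4 and 129.5 CPM, and *Vha100-1* at 94.0, 82.5 and 96.0 CPM against 99.4, 96.7 and 88.0 CPM. Both overlapped, with log2 fold changes of −0.09 and −0.06 (edgeR adjusted p = 0.696 and 0.784).

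Neither of the subunit e genes expressed in discs was called lower, and their estimates were above 0. *VhaM9.7-b* overlapped, at 56.7, 72.4 and 70.3 CPM in *CycGΔP* discs and 67.7, 58.7 and 67.7 CPM in control discs (log2 fold change 0.04, 95% interval −0.24 to 0.31, edgeR adjusted p = 0.904). *VhaM9.7-c* was at 14.5, 16.5 and 15.7 CPM against 13.97, 12.6 and 14.3 CPM. It was the 1 tested member higher in every *CycGΔP* library than in every control library (log2 fold change 0.19, 95% interval −0.03 to 0.42, edgeR adjusted p = 0.398). Over the 7 V0 members averaging 1 CPM or more, *Vha100-5* included, 4 were below 0, with a median log2 fold change of −0.06, and the difference between V0 and V1 medians was not tested.

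*VhaAC45*, whose product accompanies the V0 sector, was at 124.2, 126.6 and 125.4 CPM in *CycGΔP* discs and 139.7, 140.4 and 130.7 CPM in control discs. The groups did not overlap (log2 fold change −0.13, edgeR adjusted p = 0.409). *VhaAC45RP*, a paralogue at a low level, was at 3.89, 3.23 and 4.29 CPM against 5.98, 5.84 and 4.77 CPM. It had the most negative estimate of all members and a wide interval (log2 fold change −0.54 ± 0.19 SE, 95% interval −0.99 to −0.08, edgeR adjusted p = 0.253). *ATP6AP2*, an accessory gene of the pump outside the symbol rule, was at 142.7, 140.6 and 147.7 CPM against 152.6, 152.4 and 151.0 CPM (log2 fold change −0.08, edgeR adjusted p = 0.549).

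Across the 12 leading copies, 10 estimates were below 0 and those of *Vha26* and *VhaM9.7-b* were above it, with a median of −0.12. For the 11 that were not called, the edgeR adjusted p ranged from 0.306 to 0.913, and their 95% intervals lay within −0.48 to 0.31 on the log2 scale.

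*Vha100-5*, a subunit a copy, was high in a single library. Its counts were 211, 0 and 1 in *CycGΔP* discs and 32, 45 and 3 in control discs, or 8.04, 0 and 0.0349 CPM against 1.02, 1.10 and 0.105 CPM. *CycGΔP* replicate 1, the highest, was also the library with the most midgut marker RNA. *CycGΔP* replicate 3, second in the midgut sum at 185.8 CPM, had 1 *Vha100-5* count. In that replicate *Jon65Aiii* gave 179.7 CPM of the sum. With *Jon65Aiii* left out, a choice made after values were seen, the other 11 midgut genes summed to 168.3 CPM in *CycGΔP* replicate 1. In *CycGΔP* replicate 3 they summed to 6.11 CPM. Control replicates 1 and 2, the next highest in *Vha100-5*, were those with many tubule marker counts (968 and 1151, against 12 to 29 in the other libraries). The part of these tissues in the *Vha100-5* values was not tested. The log2 fold change of 1.84 ± 2.07 SE (edgeR adjusted p = 0.713) rests on that 1 library, and was −4.99 without it (edgeR adjusted p = 0.198). *Vha100-5* gave 3.70% of the subunit a level there and at most 0.518% in the other 5 libraries.

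**Figure D5:**
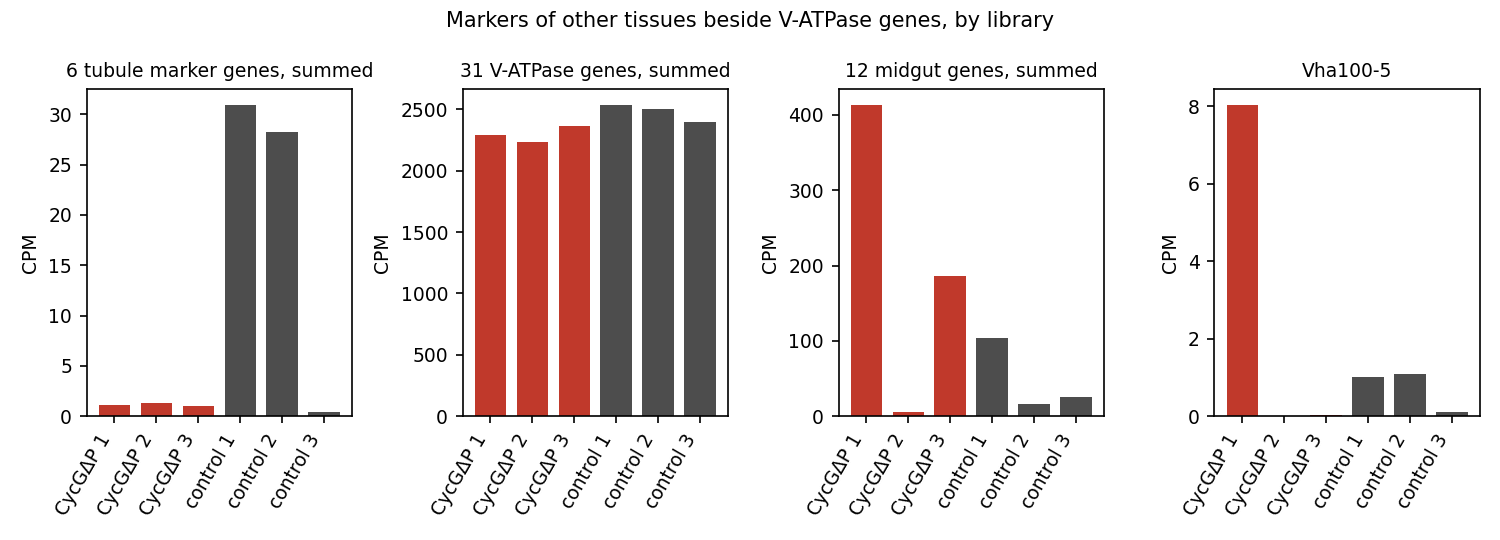
CPM by library (axes from 0) of 6 tubule marker genes summed, all 31 V-ATPase genes summed, 12 midgut genes summed and *Vha100-5*. Tubule markers stand out in control replicates 1 and 2, at 30.9 and 28.3 CPM, the V-ATPase sum stays between 2231 and 2537 CPM, and *Vha100-5* peaks with the midgut genes in *CycGΔP* replicate 1.

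Genes that act with the pump did not pass the test in either direction in edgeR. Of 6 listed for its assembly and regulation, 5 were tested, with a median log2 fold change of 0.07 and none at an unadjusted p under 0.05. The smallest p-values were those of *Rbcn-3B* (0.26), *Mitf* (0.07), a transcription factor that controls V-ATPase genes in flies, and *Rbcn-3A* (0.16), values in brackets being log2 fold changes and *Rbcn-3A* and *Rbcn-3B* encoding rabconnectins that help to assemble V1 with V0. Of 7 Ragulator and Rag GTPase genes, which link the lysosomal pump to TORC1 and of which 6 were tested, *Lamtor3* (0.32, unadjusted p = 0.0243) was higher and *Lamtor5* (−0.20, unadjusted p = 0.0398) lower, with *Lamtor4* next (−0.13), and the edgeR adjusted p was at least 0.243.

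Of 18 lysosomal enzyme and membrane protein genes, 15 were tested, with a median log2 fold change of 0.05. *Hexo1*, a hexosaminidase gene, was at 194.3, 145.3 and 170.2 CPM in *CycGΔP* discs and 216.6, 232.6 and 223.9 CPM in control discs. The groups were well apart (log2 fold change −0.40, edgeR adjusted p = 0.169), and DESeq2 gave it an adjusted p of 0.0251, or 0.0237 where fold changes were shrunk by a prior. *Lamp1*, a lysosomal membrane glycoprotein gene, had a log2 fold change of 0.20 (unadjusted p = 0.0492), and *Cln7*, a lysosomal transporter gene, of −0.20 (unadjusted p = 0.0791). Of 19 genes of transport from endosomes to lysosomes, with a median of −0.01, the smallest p-values were those of *Vps25* of ESCRT-II (−0.33, unadjusted p = 0.0135), the late endosomal GTPase *Rab7* (0.21, unadjusted p = 0.0458) and *TSG101* of ESCRT-I (0.17, unadjusted p = 0.0666), values in brackets again being log2 fold changes, and the edgeR adjusted p was at least 0.191. DESeq2 called no other gene of these lists, and limma voom none. Over all genes with an adjusted p, DESeq2 called 3.08% lower without a prior and 3.34% with it.

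The mitochondrial ATP synthase, the related rotary enzyme that makes ATP instead of using it, is given for comparison. Of its 15 ATPsyn genes 12 were tested, and 11 had a log2 fold change below 0, against 47.7% of all tested genes. The median was −0.38, and the groups did not overlap in 10 that were lower, against 12.1% of all tested genes. edgeR called 1 of the 12 lower, against 0.733% of all tested genes. The called gene was *ATPsynD*, a stalk subunit gene, at 189.6, 201.0 and 190.4 CPM in *CycGΔP* discs and 253.1, 264.9 and 285.2 CPM in control discs (log2 fold change −0.47, edgeR adjusted p = 0.0431). The V-ATPase median over tested members was −0.11, and the difference between these families was not tested.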

How the data were processed

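Polyadenylated RNA of 3 *CycGΔP* and 3 control samples had been sequenced as single reads of 50 bp. The authors aligned reads to dm6 with TopHat2 2.0.10, counted them per Ensembl gene with summarizeOverlaps in Union mode and deposited whole-number counts. Their table of counts divided by size factors was not used, and 0 value columns were left unmapped. Groups and replicate numbers came from the sample labels.

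Counts were analysed in R 4.3.3 with edgeR 4.0.16 (TMM, filterByExpr by condition, robust quasi-likelihood fit on condition alone, Benjamini-Hochberg threshold 0.05), after the procedure was tested on simulated data. Levels are TMM-scaled CPM, and per-length levels use annotated exons of a later Ensembl release on the same assembly. The annotation behind the counts is uncertain. Counting intervals and the limit of 3 counts cover counting error only.

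The alternatives were RLE and upper-quartile scaling, DESeq2 1.42.0 with and without a prior, limma 3.58.1 voom, each library left out, a laxer filter (genes with 1 count or more) and a stricter one (10 counts or more in all samples), the replicate number as a block and an adjusted p under 0.01. After seeing the data, control replicates 1 and 2 were left out, also together with *CycGΔP* replicate 1. Subunit a shares were then also recomputed without *Vha100-5*, and midgut sums without *Jon65Aiii*. The members, lists and tests were chosen with earlier results of these data known. Named in full were the highest copy per length of each subunit and members with a p under 0.05, and for other lists the genes called or, under 3, the 3 smallest p-values. No sequences were used here.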

Additional observations from a re-analysis of the deposited data

How the results depend on the processing

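The number of V-ATPase members called lower was 1 under RLE, upper-quartile scaling, both DESeq2 fits, limma voom and both filters, and 0 with the replicate block, with each library left out (0 to 0), at an adjusted p under 0.01, and in both settings added after seeing the data, without control replicates 1 and 2 and without these and *CycGΔP* replicate 1. The cause was not tested. *Vha13* kept its direction in all 16 fits, with log2 fold changes of −0.50 to −0.42, and had an adjusted p under 0.05 in 7, from 6.39e-10 (DESeq2 with a prior) to 0.263. The block gave 2 calls over all genes, against 134 without it, and *Vha13* an adjusted p of 0.151. The deviations of same-numbered samples correlated at −0.12, −0.31 and −0.16, and those of differently numbered samples at −0.17 to 0.34. With 3 samples per group, this check cannot decide whether the numbers pair the samples. DESeq2 called 560 genes without a prior and 534 with it. Over all genes, leaving out 1 library gave 11 to 78 calls. The median log2 fold change of members ranged from −0.13 to −0.08. Over the 18 tested members and *ATP6AP2*, 5 of which (*Vha68-1*, *Vha100-1*, *Vha100-3*, *Vha100-5* and *VhaM9.7-c*) were added after seeing the data, 10 estimates changed sign, none of them called. *Vha26* ranged from −0.03015 (without *CycGΔP* replicate 3) to 0.06421 as each library was left out, and *VhaM9.7-b* from −0.04396 (without control replicate 2) to 0.1361, being below 0 also without *CycGΔP* replicate 2 or 3, and at −0.06637 without control replicates 1 and 2. *Vha100-1* ranged from −0.11 to 0.004757 (without *CycGΔP* replicate 2) and was at 0.00853 without control replicates 1 and 2. *Vha100-5* ranged from −4.985 (without *CycGΔP* replicate 1) to 2.424, and was at −1.291 in limma voom and −0.6909 with the replicate block. Genes of the pathway lists called lower numbered 1 under either DESeq2 fit and 0 in edgeR. Over all genes with an adjusted p, DESeq2 called 3.08% lower without a prior and 3.34% with it, and edgeR 0.733%. *CycG* passed the test in DESeq2 only, at 0.40 without a prior (adjusted p = 0.000527) and 0.38 with it (adjusted p = 0.000493). Without division by length the leading copy gave 99.8% for *Vha14-1*, 99.99% for *Vha16-1* and 81.7% for *VhaM9.7-b*.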
